A study of Mus musculus with 4 samples.

Results

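The 34 genes described here encode collagens and other proteins that cells build into the extracellular matrix, together with the proteins that fold, crosslink or cut them. The list was given as symbols, and all 34 were found among the 31053 genes of the deposited tables. By role they are 6 fibrillar collagen chains, 4 basement membrane collagen chains, 5 other collagen chains, 7 glycoproteins, 3 proteoglycans, 5 proteases or protease inhibitors and 4 collagen chaperones or crosslinkers. Tumours of B16F10, a mouse melanoma line that checkpoint antibodies alone control poorly, were dissociated, cleared of red and dead cells, and profiled without sorting by 5' single-cell RNA sequencing in droplets. The 4 groups, each with 1 library, are Control (whether left untreated or given vehicle is not stated in the labels), aPD-1, which blocks the checkpoint receptor PD-1, D+F, which combines the anthracycline doxorubicin with the ROCK inhibitor fasudil, and D+F+P, which adds PD-1 blockade to both drugs. All groups share the tumour line, and the labels give neither the mouse strain and age, nor the doses and days of treatment, nor the number of mice in a library. With 1 library a group, every difference between libraries below compares libraries and not treatments, and has no replicate check.

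Matrix is built outside the cell. Fibrillar collagens (types I, III and V) assemble into the fibres of connective tissue, type IV collagen forms the sheet of the basement membrane, and fibronectin and matricellular proteins such as Sparc, periostin and tenascin link fibres to cells. In tumours most fibrillar collagen is known to come from fibroblasts, while tumour cells, endothelial cells and macrophages also secrete matrix proteins, and B16F10 cells are of the melanocyte lineage, which itself makes several of them.

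After filtering, 2275, 2214, 2483 and 2443 cells remained. Wherever 4 values stand together, Control comes first, then aPD-1, then D+F, and D+F+P last. Median UMIs per cell (molecules counted by their identifiers) were 16143, 9563.5, 12882 and 1866. Cells were clustered without the 34 genes and without the lists of related genes described below, and clusters were named from marker genes, none of which is among the 34. The suffix "-like" marks names given from transcripts only. Melanoma-like cells numbered 1891, 1097, 1702 and 533, monocyte/macrophage-like cells 62, 241, 104 and 92, and T-like cells 21, 454, 221 and 545. The fibroblast-like class held 11, 43, 7 and 25 cells, 86 in all, and all 14 fibroblast markers, Pdgfra and Pdgfrb among them, were detected in it. A further 8 cells carried endothelial markers such as Pecam1 and Egfl7 and were set apart. Clusters left unnamed held 195, 296, 367 and 1150 cells, and the largest, with 984 of the D+F+P cells, had a median of 659 UMIs a cell. Another, of 308 cells, had 7 T markers, and another, of 433 cells, had 6 melanoma markers. The T-like and melanoma-like counts leave these cells out. Of 10533 barcode sequences in the files, 69 occurred in more than 1 library.

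A level is given as CPM, the usual depth-scaled unit of counts: the UMIs of a gene summed over the cells of a class in 1 library, divided by all UMIs of those cells and put on the CPM scale. Each interval is an exact 95% interval for counting error alone. A gene was counted as higher or lower in a comparison where the 2 levels differed at least 1.5-fold and the interval of their ratio excluded 1, among genes with at least 20 UMIs in the pair. The share of all genes that meet this rule is printed beside the first count of each comparison.

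The 86 fibroblast-like cells, of 9415 cells, held most of the transcripts of 22 of the 34 genes when the libraries were pooled. Among all 14674 genes with at least 20 UMIs, 2.19% had over 50% of their UMIs in that class. The genes of collagen types I and III (Col1a1, Col1a2 and Col3a1) had 97.4%, 97.4% and 98.1% of their UMIs there. So had biglycan (Bgn, 97.4%) and decorin (Dcn, 95.6%), small proteoglycans that bind collagen fibres. The collagen crosslinkers lysyl oxidase (Lox, 97.6%) and Loxl1 (98.3%) and tenascin-C (Tnc, 96.9%) were as concentrated.

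Melanoma-like cells, the most numerous class, held over 50% of the UMIs of 10 of the 34 genes, against 85.6% of all genes. These were Serpinh1, the collagen chaperone HSP47 (92.6%), the metalloproteinase inhibitor Timp2 (90.7%), the membrane metalloproteinase Mmp14 (89.6%), Sparc (78.1%), the type IV collagen chains Col4a1 (73%) and Col4a2 (59.1%), Loxl2 (71.2%), Col18a1, the source of endostatin (67.1%), Mmp2 (54.4%) and Timp3 (53.1%). The 8 endothelial-like cells held 10.2% of Col4a1, 15% of Col4a2 and 11.2% of Timp3.

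Macrophages were the main source of 1 member. Tgfbi, a secreted protein induced by TGF-beta, had 93.9% of its UMIs in monocyte/macrophage-like cells, a class that held over 50% of the UMIs of 2.07% of all genes. Fibronectin (Fn1) was shared, with 53.1% in fibroblast-like, 40.2% in melanoma-like and 4.52% in monocyte/macrophage-like cells. Col15a1, a collagen of basement membrane zones, had no class above 50%, with 48.5% in fibroblast-like and 41.8% in melanoma-like cells. Col5a3 (54.2%) and Col12a1 (59.3%) lay near that mark on the fibroblast side.

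**Figure D1:**
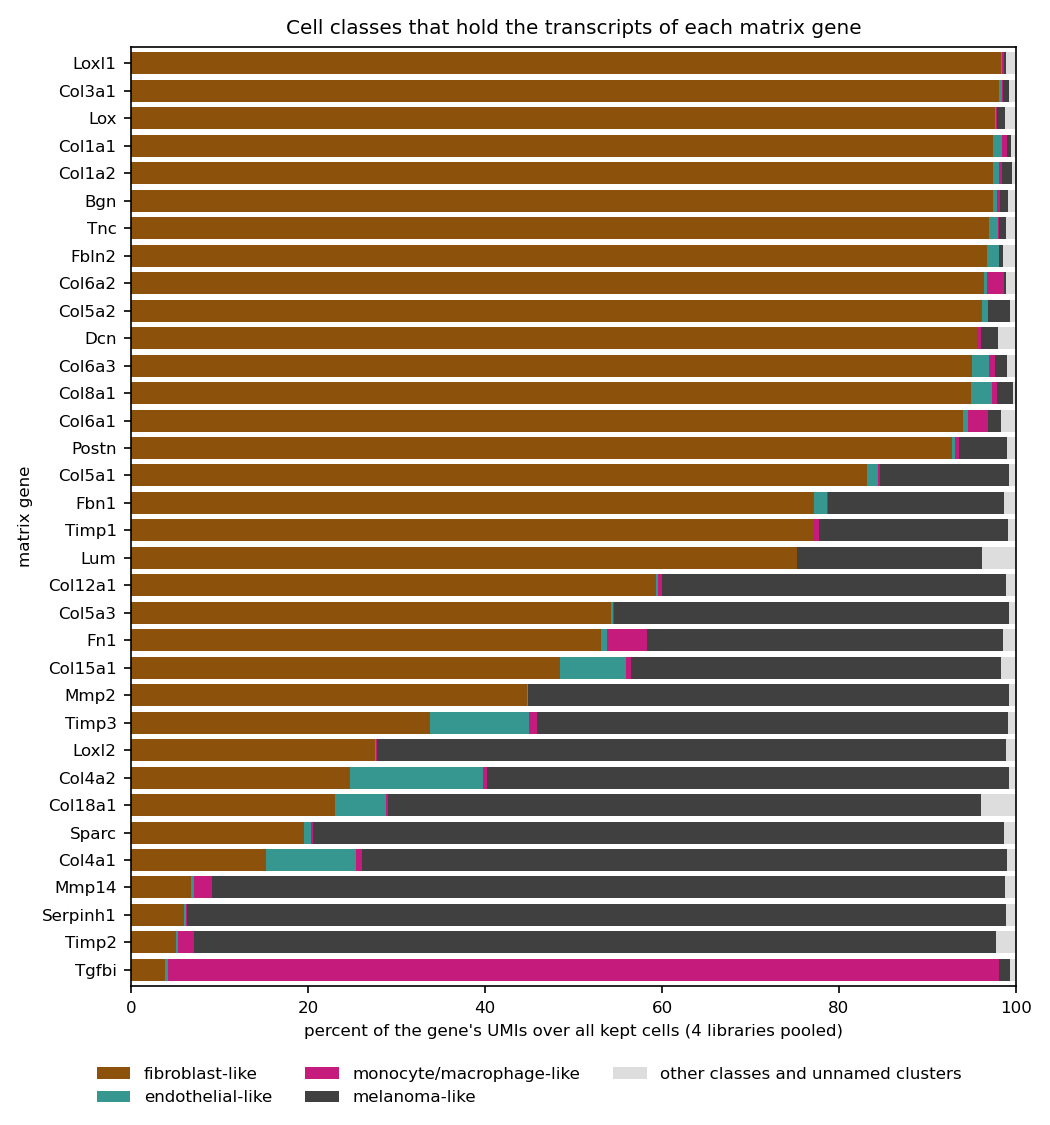
Share of each gene's UMIs held by cell class over the pooled libraries (x axis, percent; 1 bar a gene, 34 genes). Loxl1 and Col3a1 at the top lie almost wholly in fibroblast-like cells, the bars from Mmp2 down to Timp2 are mostly melanoma-like, and Tgfbi at the bottom is mostly monocyte/macrophage-like.

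The balance between the sources differed between libraries, as did the number of fibroblast-like cells. Of all UMIs of the 34 genes, fibroblast-like cells held 8.87%, 61.0%, 11.7% and 61.8%, and melanoma-like cells 88.4%, 35.6%, 84.4% and 34.3%. Genes with over 50% of their UMIs in fibroblast-like cells numbered 16, 25, 15 and 25. The share over all genes was taken for the pooled libraries only (2.19%) and not by library. These counts are therefore not read as a change in the matrix genes. Fn1 moved across that mark: its fibroblast-like share was 9.98, 75, 18.7 and 84%. Sparc had a fibroblast-like share of 4.11, 41, 4.01 and 42.6%. The Control and D+F libraries held 11 and 7 fibroblast-like cells, and fewer fibroblasts in the tumour cannot be told apart from fewer recovered by dissociation.

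The promoters of 4 genes are printed to show the regulatory sequence of a pair held by fibroblast-like cells (Col3a1 and Bgn) and of a pair held by melanoma-like cells (Serpinh1 and Mmp14). They are the 250 bases before the annotated start, from RefSeq on GRCm38.p6, 5′ to 3′ on the gene's strand, and RefSeq windows were at hand for 24 of the 34 genes. Their positions are chr1:45311288-45311537, plus strand, chrX:73483351-73483600, plus strand, chr7:99353240-99353489, minus strand and chr14:54431348-54431597, plus strand. Capitals mark matches on either strand to 7 short motifs. They are TATAAA (the TATA box), CCAAT (the CCAAT box), GGGCGG (the GC box), the E-box forms written CATGTG and, for the palindrome, CACGTG, the AP-1 site written TGACTCA, and the heat shock element core, written as GAANNTTC.
Col3a1: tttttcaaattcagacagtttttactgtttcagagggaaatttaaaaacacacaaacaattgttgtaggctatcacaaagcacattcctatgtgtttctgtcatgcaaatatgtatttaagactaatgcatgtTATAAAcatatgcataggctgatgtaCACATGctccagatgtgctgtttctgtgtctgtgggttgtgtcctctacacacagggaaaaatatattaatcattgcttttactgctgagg
Bgn: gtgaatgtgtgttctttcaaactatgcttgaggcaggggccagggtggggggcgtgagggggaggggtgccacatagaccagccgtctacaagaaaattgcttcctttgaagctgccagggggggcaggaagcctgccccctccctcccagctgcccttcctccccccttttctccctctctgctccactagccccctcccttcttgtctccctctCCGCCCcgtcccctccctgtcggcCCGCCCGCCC
Serpinh1: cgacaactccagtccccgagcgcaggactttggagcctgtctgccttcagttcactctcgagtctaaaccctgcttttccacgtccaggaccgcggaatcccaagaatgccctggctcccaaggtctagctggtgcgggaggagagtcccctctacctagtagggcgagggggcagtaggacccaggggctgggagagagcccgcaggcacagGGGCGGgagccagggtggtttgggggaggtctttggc
Mmp14: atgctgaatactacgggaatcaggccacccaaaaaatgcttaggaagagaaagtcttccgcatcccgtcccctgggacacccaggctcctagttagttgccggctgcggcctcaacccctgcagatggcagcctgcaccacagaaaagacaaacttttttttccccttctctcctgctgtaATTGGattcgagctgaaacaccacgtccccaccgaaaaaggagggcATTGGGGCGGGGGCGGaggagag

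The Col3a1 window held TATAAA, found in 12.4% of all 32851 windows of this length and in 3 of the 24, and CATGTG on the other strand, found in 12.3%. The Bgn, Serpinh1 and Mmp14 windows held GGGCGG, a GC box, present in 32.7% of all windows and in 17 of the 24. Mmp14 also held CCAAT on the other strand, and its last CCAAT match overlaps a GC box. CCAAT was present in 33.8% of all windows and in 8 of the 24. CACGTG and GAANNTTC, present in 6.02% and 6.69% of all windows, matched none of the 24, and TGACTCA (4.46%) matched 1, Col6a1. These matches describe letters in a window and not binding.

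Gene positions are from GENCODE vM21 on GRCm38, whose release need not be the one used for counting. Fn1 lies at chr1:71585520-71653200, minus strand, Sparc at chr11:55394500-55423183, minus strand, Serpinh1 at chr7:99345376-99353239, minus strand and Tgfbi at chr13:56609523-56639562, plus strand. Col4a1 (chr8:11198423-11312826, minus strand) and Col4a2 (chr8:11312805-11449287, plus strand) are transcribed away from each other, and their starts lie 21 bases apart with the first exons overlapping. Timp1 shares its span with Syn1, Timp3 with Syn3 and Col18a1 with Slc19a1, each on the opposite strand. How the counting treated strand is not given in the sources used here.

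Within each library, every matrix gene that could be compared stood higher in fibroblast-like than in melanoma-like cells. The counts were 33 of 33 in Control, 33 of 33 in aPD-1, 31 of 31 in D+F and 34 of 34 in D+F+P. Of these, 14, 16, 13 and 17 had under 20 UMIs in melanoma-like cells and passed the minimum only through the far smaller fibroblast-like class, so the minimum itself fixed their direction. The members with at least 20 UMIs in melanoma-like cells alone were 19, 17, 18 and 17, and all of these were counted as higher too. Of all genes with that many UMIs there, 6.58, 12.5, 6.25 and 14.5% were counted as higher and 7.13, 24.6, 4.37 and 18.6% as lower. The median log2 ratio of these members was 6.27, 5.35, 7.37 and 6.01, against 1.08, -0.28, 1.91 and -0.08 over all such genes, with 0 UMIs in fibroblast-like cells set to 3. With the minimum met in both classes together, among all genes compared, 7.13%, 15.1%, 6.75% and 16.6% were counted as higher, and 7.08%, 23.8%, 4.35% and 18.1% as lower, against 0 matrix genes. The 10 genes with most UMIs in melanoma-like cells are in this count: per cell class they stood higher in fibroblast-like cells, and the melanoma-like cells held more UMIs by number.

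Type I and III collagen stood under 1 CPM in melanoma-like cells, and 2 of the 3 type V chains stood above that in every library. Col1a1, the alpha 1 chain of type I collagen, stood at 9364, 5762, 21710.0 and 6344 CPM in fibroblast-like cells. In melanoma-like cells Col1a1 rested on 22, 15, 4 and 5 UMIs, or 0.674, 0.722, 0.141 and 0.339 CPM. The D+F library was the highest for Col1a1 in fibroblast-like cells, but 1 of its 7 cells held 59.8% of the UMIs. Col1a2, its partner chain, stood at 3978, 3608, 9538 and 3776 CPM in fibroblast-like and 0.46, 0.578, 0.671 and 0.679 CPM in melanoma-like cells. Col3a1, the type III chain, stood at 5865, 4219, 8569.7 and 5044 CPM in fibroblast-like and 0.49, 0.481, 0.282 and 0.339 CPM in melanoma-like cells. Type V chains, which help set the diameter of type I fibres, differed among themselves. Col5a1 had 944, 517, 696 and 737 CPM in fibroblast-like and 1.32, 1.78, 1.38 and 1.22 CPM in melanoma-like cells. Col5a2 had 915, 725, 1317 and 759.6 CPM in fibroblast-like cells and 12, 9, 0 and 4 UMIs in melanoma-like cells. Col5a3 had 450.1, 253, 522 and 551 CPM in fibroblast-like and 4.72, 3.56, 3.5 and 3.8 CPM in melanoma-like cells, so its log2 ratio between the classes (6.58, 6.15, 7.22 and 7.18) was smaller than that of Col5a1 (9.48, 8.18, 8.98 and 9.24).

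**Figure D2:**
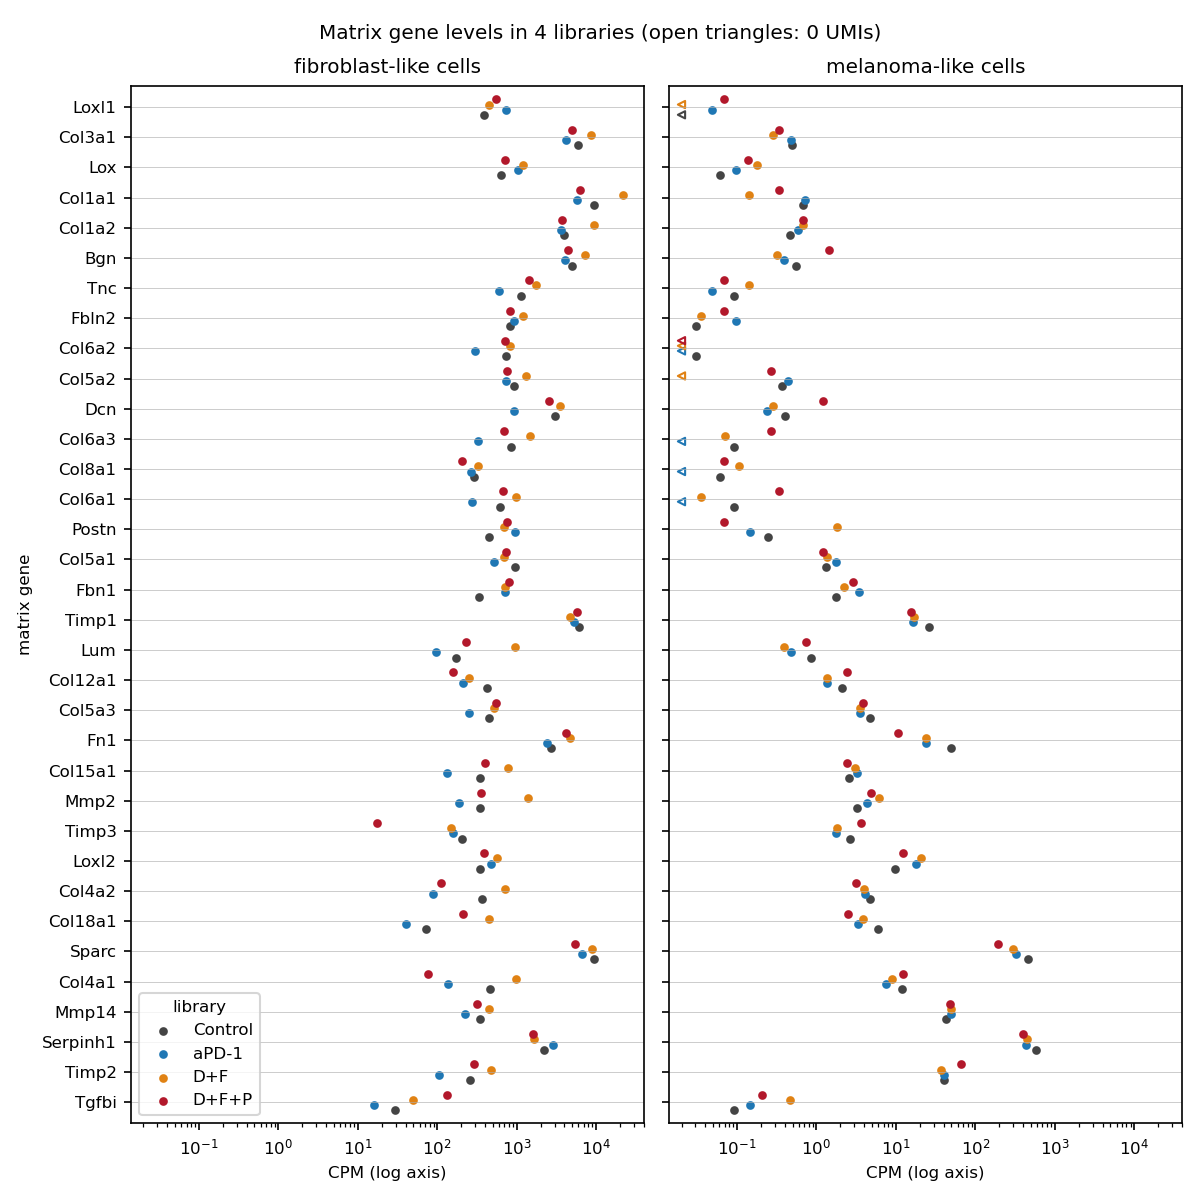
CPM of the 34 genes (log axis) in fibroblast-like cells (left) and melanoma-like cells (right); 1 point a library, colours for the 4 libraries, open triangles for 0 UMIs, genes ordered by their fibroblast-like share of UMIs. Col1a1 spans 5762 to 21710.0 CPM on the left and under 1 CPM on the right, whereas Serpinh1 spans 1625 to 2854 CPM on the left and 398 to 581 CPM on the right.

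The other collagens were close to absent from melanoma-like cells, apart from Col12a1. Type VI collagen forms beaded filaments around cells. Its chains Col6a1, Col6a2 and Col6a3 stood at 624, 276, 994 and 666, at 740.4, 296, 819.7 and 708 and at 857, 331, 1490.4 and 693 CPM in fibroblast-like cells. Their UMIs in melanoma-like cells numbered 3, 0, 1 and 5 for Col6a1, 1, 0, 0 and 0 for Col6a2 and 3, 0, 2 and 4 for Col6a3. In the aPD-1 library, where all 3 had 0 UMIs in melanoma-like cells, a floor of 3 UMIs put Col6a1 at least 1909-fold higher in fibroblast-like cells. Col8a1, a short-chain collagen, stood at 290.4, 268, 323 and 206 CPM in fibroblast-like cells and had 2, 0, 3 and 1 UMIs in melanoma-like cells. Col12a1, which binds the surface of fibres, stood at 421, 211, 248 and 157 CPM in fibroblast-like and 2.11, 1.35, 1.34 and 2.44 CPM in melanoma-like cells.

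All 4 basement membrane collagens were detected in both classes in every library, and the type IV chains were also found in endothelial-like cells. Col4a1 stood at 465, 135, 994 and 76.2 CPM in fibroblast-like, 11.9, 7.56, 9.0 and 12.2 CPM in melanoma-like and 1572, 1847, 2449.5 and 5391 CPM in endothelial-like cells. Col4a2 stood at 363, 89.7, 720.4 and 111, 4.75, 4.04, 3.95 and 3.12 and 1269.5, 1385, 2301 and 2336 CPM in the same classes, each in the order of the libraries. The endothelial-like values rest on 3, 2, 2 and 1 cells, and 1 of the 3 Control cells held all 82 Col1a1 UMIs of that class. Col15a1 had 348, 134, 770.0 and 403 CPM in fibroblast-like and 2.61, 3.27, 3.04 and 2.44 CPM in melanoma-like cells. Col18a1 had 72.6, 40.1, 447 and 214 CPM in fibroblast-like and 5.91, 3.32, 3.81 and 2.51 CPM in melanoma-like cells, and its Control fibroblast-like value rests on 5 UMIs.

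Some glycoproteins were found in both classes and others were concentrated in fibroblast-like cells. Fn1 stood at 2700.4, 2405, 4719.6 and 4211 CPM in fibroblast-like and 49.5, 24.1, 23.6 and 10.6 CPM in melanoma-like cells. Sparc, which binds collagen in the secretory pathway and outside the cell, stood at 9364, 6688, 8942 and 5469 CPM in fibroblast-like and 456, 328, 295 and 191 CPM in melanoma-like cells. The microfibril protein fibrillin-1 (Fbn1) had 334, 712, 720.4 and 796 CPM in fibroblast-like and 1.78, 3.42, 2.22 and 2.85 CPM in melanoma-like cells. Periostin (Postn), Tnc and fibulin-2 (Fbln2) lay on the fibroblast side. Postn had 450.1, 954, 696 and 767 CPM in fibroblast-like cells and 8, 3, 51 and 1 UMIs in melanoma-like cells, and 1 cell held 92.2% of its 51 UMIs in D+F melanoma-like cells. Tnc had 1147, 597, 1764 and 1413 CPM in fibroblast-like cells and 3, 1, 4 and 1 UMIs in melanoma-like cells. Fbln2 had 828, 921, 1192 and 836 CPM and 1, 2, 1 and 1 UMIs in those classes. Tgfbi had 29, 16.1, 49.7 and 133 CPM in fibroblast-like cells, from 2, 12, 2 and 54 UMIs, and 3, 3, 13 and 3 UMIs in melanoma-like cells.

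The 3 small leucine-rich proteoglycans marked fibroblast-like cells. Dcn stood at 3049, 939, 3552 and 2581 CPM there and had 13, 5, 8 and 18 UMIs in melanoma-like cells. Bgn stood at 4907, 4017, 7154 and 4415 CPM and had 18, 8, 9 and 21 UMIs in melanoma-like cells. Lumican (Lum) stood at 174, 96.3, 944 and 231 CPM and had 28, 10, 11 and 11 UMIs in melanoma-like cells. The fibroblast-like levels of Dcn and Lum were lowest in the aPD-1 library.

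Among the enzymes of collagen assembly, Serpinh1 and Loxl2 were found in both classes, while Lox and Loxl1 had at most 5 UMIs in melanoma-like cells of a library. Serpinh1 stood at 2192, 2854, 1639 and 1625 CPM in fibroblast-like and 581, 437, 441 and 398 CPM in melanoma-like cells. Loxl2 stood at 348, 482, 571 and 383 CPM in fibroblast-like and 9.75, 17.7, 20.8 and 12.2 CPM in melanoma-like cells. Lox had 639, 1030.4, 1217 and 708 CPM in fibroblast-like cells and 2, 2, 5 and 2 UMIs in melanoma-like cells. Loxl1 had 392, 728, 447 and 546 CPM in fibroblast-like cells and 0, 1, 0 and 1 UMIs in melanoma-like cells, which at the floor of 3 UMIs put it at least 4263-fold higher in Control fibroblast-like cells. Among the genes compared, Serpinh1 had the smallest log2 ratio between the classes in Control (1.92), D+F (1.89) and D+F+P (2.03), and Timp2 in aPD-1 (1.39).

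All 5 proteases and inhibitors were detected in both classes in every library. Timp1, a broad inhibitor of metalloproteinases, stood at 6011, 5291, 4695 and 5747 CPM in fibroblast-like and 26.2, 16.7, 17.1 and 15.6 CPM in melanoma-like cells. Timp2, which both inhibits Mmp2 and takes part in its activation with Mmp14, stood at 261, 104, 472 and 290.1 CPM in fibroblast-like and 40.1, 39.9, 37 and 65.1 CPM in melanoma-like cells. Timp3, which stays bound to matrix, stood at 203, 158, 149 and 17.2 CPM in fibroblast-like and 2.64, 1.78, 1.84 and 3.6 CPM in melanoma-like cells. The inhibitors thus ranged from a narrow gap for Timp2 to a wide one for Timp1. The gelatinase Mmp2 stood at 348, 186, 1391 and 356 CPM in fibroblast-like and 3.28, 4.33, 6.18 and 4.82 CPM in melanoma-like cells. Mmp14 stood at 348, 225, 447 and 317 CPM in fibroblast-like and 43.1, 48.8, 48.9 and 48.5 CPM in melanoma-like cells.

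T-like cells, not known as a source of interstitial collagen, give a level for the background in droplets. Col1a1 stood at 0, 3.93, 1.38 and 2.57 CPM in them, Fn1 at 0, 0.714, 2.07 and 3.0 CPM, Sparc at 16.4, 17.5, 10.3 and 4.93 CPM and Serpinh1 at 8.22, 11.8, 14.5 and 6.22 CPM. The Col1a1 level of melanoma-like cells was at or under the T-like level in every library but Control, where T-like cells had 0 UMIs from 21 cells. Outside Control the Col1a1 levels rest on 15, 4 and 5 UMIs in melanoma-like and 11, 2 and 12 in T-like cells. Whether they are background was not tested. Sparc, Serpinh1 and Fn1 in melanoma-like cells were above the T-like level in every library. After thinning every cell to 1000 UMIs, Sparc was found in 32, 23.7, 22.5 and 19.9% of melanoma-like cells and in 5.0, 3.89, 1.44 and 0.828% of T-like cells. Fn1 was found after thinning in 4.83, 2.94, 1.95 and 0.947% of melanoma-like cells, against 1 of the T-like cells of all libraries. Without thinning, the Sparc shares of melanoma-like cells were 93.9, 83, 83.2 and 78.6% and of T-like cells 9.52, 10.4, 6.33 and 4.04%.

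Melanoma-like cells of the 3 treated libraries had lower levels of Fn1, Sparc, Timp1 and Col18a1 than Control, and other members were counted in 1 or 2 libraries only. In aPD-1, 2 of 23 comparable genes were counted as higher and 4 as lower, where the shares over all genes were 4.57% and 4.77%. In D+F, 3 of 24 were higher and 7 lower, against 5.43% and 3.97% of all genes. In D+F+P, 4 of 23 were higher and 5 lower, against 7.84% and 8.82%. The median log2 ratio of the members was -0.23, -0.42 and -0.09, and that of all genes -0.05, -0.06 and -0.09.

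Fibronectin, Sparc, Timp1 and Col18a1 stood highest in Control. Fn1 had 1615, 500, 669 and 156 UMIs in melanoma-like cells, 49.5, 24.1, 23.6 and 10.6 CPM, and 35.6, 23.6, 19.8 and 17.3% of the cells had at least 1. Its log2 ratio to Control was -1.04 (-1.19 to -0.89) in aPD-1, -1.07 (-1.2 to -0.94) in D+F and -2.22 (-2.47 to -1.99) in D+F+P. The aPD-1 and D+F libraries lay together and D+F+P lay below both, at -1.16 (-1.42 to -0.90) against D+F and -1.18 (-1.45 to -0.92) against aPD-1. Sparc had 14866, 6804, 8352 and 2820 UMIs, 456, 328, 295 and 191 CPM. Its log2 ratio was -0.48 (-0.52 to -0.43) in aPD-1, short of 1.5-fold, -0.63 (-0.67 to -0.59) in D+F and -1.25 (-1.31 to -1.19) in D+F+P. Sparc had the same order of libraries as Fn1, with smaller steps. Timp1 (26.2, 16.7, 17.1 and 15.6 CPM) had ratios of -0.65 (-0.84 to -0.47), -0.62 (-0.78 to -0.46) and -0.75 (-0.96 to -0.53), and the 3 treated libraries did not differ from each other by 1.5-fold. Col18a1 (5.91, 3.32, 3.81 and 2.51 CPM) had ratios of -0.83 (-1.25 to -0.43), -0.63 (-0.99 to -0.29) and -1.24 (-1.78 to -0.72). Serpinh1 (581, 437, 441 and 398 CPM) was lower by less than 1.5-fold in each, at -0.41 (-0.45 to -0.37), -0.40 (-0.43 to -0.36) and -0.54 (-0.59 to -0.50). With every cell thinned to 1000 UMIs, the Fn1 ratios came to -0.50, -1.44 and -2.04, the Timp1 ratios to -0.87, -0.34 and 0.06, and the Col18a1 ratios to -1.21, -0.11 and -1.75, each from few UMIs. The thinned Sparc ratios were -0.46, -0.63 and -0.86, so its step in D+F+P was smaller than the -1.25 of unthinned cells.

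Loxl2, Mmp2 and Timp2 stood higher in particular libraries. Loxl2, a crosslinker of collagen IV among other substrates, had 318, 367, 589 and 180 UMIs, 9.75, 17.7, 20.8 and 12.2 CPM. Its log2 ratio to Control was 0.86 (0.64 to 1.08) in aPD-1 and 1.09 (0.89 to 1.29) in D+F, and 0.33 (0.05 to 0.59) in D+F+P, which is short of 1.5-fold. Loxl2 in D+F+P was -0.77 (-1.02 to -0.52) against D+F. With every cell thinned to 1000 UMIs, its ratios to Control came to 0.39, 0.64 and 0.00, and neither aPD-1 nor D+F was then counted as higher. Mmp2 (3.28, 4.33, 6.18 and 4.82 CPM) was counted as higher in D+F, at 0.91 (0.56 to 1.27), with 0.40 (-0.02 to 0.82) in aPD-1 and 0.56 (0.10 to 1.0) in D+F+P. Timp2 (40.1, 39.9, 37 and 65.1 CPM) was level in aPD-1, at -0.01 (-0.13 to 0.12), and in D+F, at -0.12 (-0.24 to 0.00). Timp2 stood apart in D+F+P, at 0.70 (0.58 to 0.82) against Control, 0.82 (0.69 to 0.94) against D+F and 0.71 (0.57 to 0.84) against aPD-1. Mmp14, the partner of both, was nearly even over the 4 libraries (43.1, 48.8, 48.9 and 48.5 CPM).

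**Figure D3:**
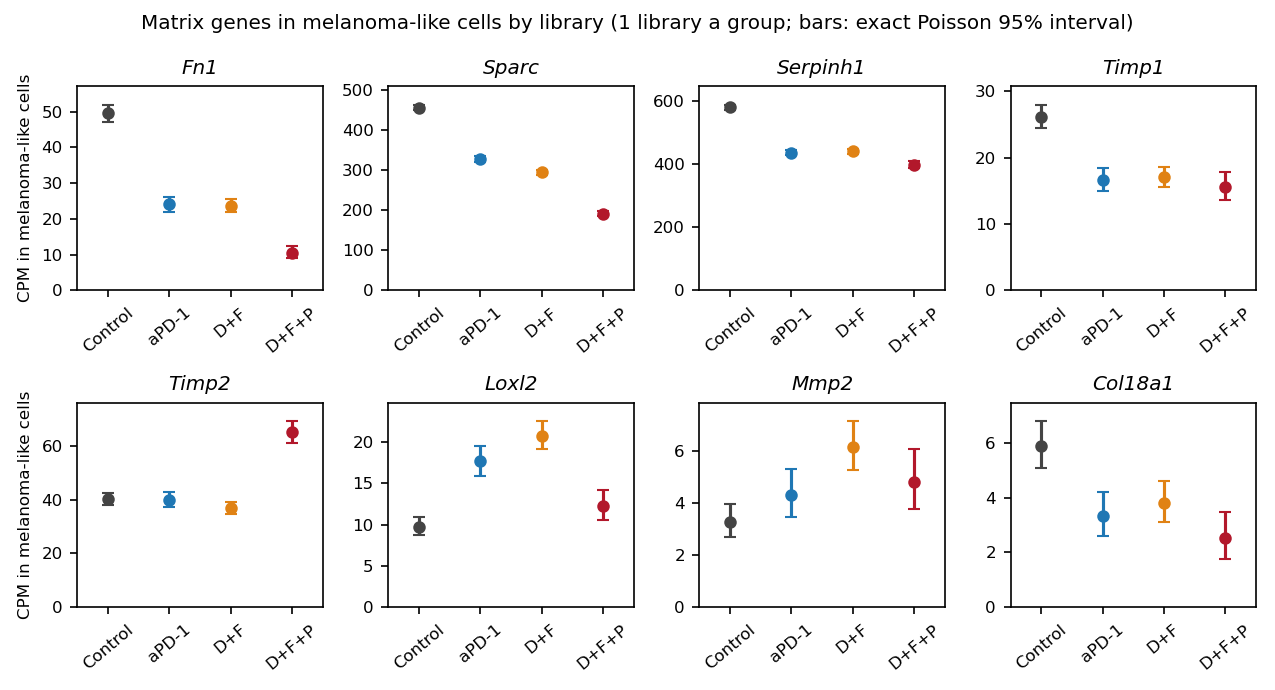
CPM of 8 matrix genes in melanoma-like cells by library (y axes start at 0; points are library values, bars exact Poisson 95% intervals for counting error only, 1 library a group). Fn1, Sparc, Timp1 and Col18a1 are highest in Control, Loxl2 in D+F, and Timp2 in D+F+P.

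The remaining members of melanoma-like cells had few UMIs. Col4a1 (11.9, 7.56, 9.0 and 12.2 CPM) was counted as lower in aPD-1, at -0.65 (-0.93 to -0.38), and Col4a2 (4.75, 4.04, 3.95 and 3.12 CPM) in D+F+P, at -0.61 (-1.11 to -0.12). Fbn1 (1.78, 3.42, 2.22 and 2.85 CPM) was counted as higher in aPD-1, at 0.94 (0.42 to 1.47), and in D+F+P, at 0.68 (0.07 to 1.28), and with thinned cells these came to -1.53 and -0.49. Col12a1 was counted as lower in D+F, at -0.66 (-1.27 to -0.06). Timp3 was not counted against Control in any library but was higher in D+F+P than in D+F, at 0.97 (0.39 to 1.55), and than in aPD-1, at 1.01 (0.38 to 1.66). When the matrix genes were allowed in the clustering, Timp3 in D+F+P against aPD-1 came to -0.086. Col5a1, Col5a3 and Col15a1 were counted in no comparison with Control.

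Several counts among fibroblast genes rest on single cells. Postn was counted as higher in D+F, where 1 cell held 92.2% of its UMIs. Dcn was counted as higher in D+F+P, where 1 cell held 83.3%. Col1a1 was counted as lower in D+F against a Control value of which 1 cell held 63.6%. Bgn in D+F+P, at 1.37 (0.39 to 2.36) from 21 UMIs, and Lum in D+F, at -1.14 (-2.3 to -0.09) from 11 UMIs, are the other counts with few UMIs. The summed fibroblast markers of melanoma-like cells stood at 34.8, 37.4, 38.6 and 56.6 CPM, with 9, 7, 13 and 9 of 14 markers detected and Twist1 at 0 in all 4 libraries. Without the melanoma-like cells that held 2 or more stromal markers, 1 member was higher in D+F+P than in Control. Fn1 without those cells was -2.16 in D+F+P.

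Set against the libraries of its component treatments, D+F+P melanoma-like cells had 5 of 22 members higher and 5 lower than in D+F (3.85% and 2.79% of all genes). Against aPD-1 they had 6 higher and 2 lower of 22 (4.0% and 2.45%). Fn1 and Sparc were the 2 members lower than in aPD-1, and Timp2, Timp3, Bgn, Dcn, Col12a1 and Col4a1 the 6 higher. Both comparisons share the D+F+P library.

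Within the melanoma-like class, the libraries pooled, Fn1, Sparc and Loxl2 stood highest in the same 3 clusters. Cluster 1 (957 cells, led by Ero1l, Espn, Pgf and Vegfa) and cluster 6 (764 cells, led by Hspb1, Car9 and Bnip3) carry genes known to be induced by low oxygen. Cluster 12 (197 cells, led by Neat1) had a median mitochondrial share of 14.7% and a ribosomal protein share of 5.64%, against 1.94% to 2.97% and 20.4% to 22.4% in the other 7. Fn1 stood at 76.5, 35.4 and 94.6 CPM in clusters 1, 6 and 12, and at 10.5 to 24.3 CPM in the others. Loxl2 stood at 38.2, 24.4 and 51.1 CPM, and at 4.18 to 9.11 CPM in the others. Sparc stood at 551, 449 and 555 CPM, and at 220.1 to 294 CPM in the others. Within single libraries these 3 clusters ranked highest for Loxl2 in all 4, and for Fn1 and Sparc in aPD-1 and D+F. In Control, cluster 2 had more Fn1 than cluster 6 (67 against 51.9 CPM) and more Sparc than clusters 6 and 12 (563 against 543 and 555 CPM). In D+F+P, cluster 6 was among the lower ones for Fn1 (5.66 CPM) and stood below cluster 2 for Sparc (212 against 223 CPM). Timp2, Serpinh1 and Timp1 did not share the pooled pattern. Timp2 ran from 35.8 to 48.6 CPM outside cluster 12, where it was 70.7. Serpinh1 was lowest in cluster 1 (423 CPM), and Timp1 was highest in cluster 7 (27.8 CPM), which is led by histone and cell cycle genes.

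The clusters were filled differently by the libraries, so members were compared within each. Control had 88 of its 1891 melanoma-like cells in cluster 2, led by interferon-induced genes such as Gbp2 and Igtp, and D+F+P had 205 of 533. The Fn1 level was lower than in Control in all 8 clusters in aPD-1 (log2 ratios -2.59 to -0.65) and in all 8 in D+F (-1.96 to -0.86). In D+F+P it was lower in 7 of 8, from -3.43 in cluster 0 to -1.33 in cluster 12, and at 0.08 in cluster 5, which held 13 D+F+P cells. In cluster 1 alone Fn1 stood at 120.3, 53.2, 66.3 and 21.7 CPM. Timp2 was higher in D+F+P than in Control in all 8 clusters, from 0.18 to 1.1. With each cluster weighted by its Control share, the log2 ratios of Fn1 were -1.17, -1.13 and -2.13, those of Sparc -0.66, -0.68 and -1.57, of Loxl2 0.71, 1.05 and 0.22, and of Timp2 -0.09, -0.09 and 0.65 in aPD-1, in D+F and in D+F+P. Clusters 0, 5 and 7 held 416, 248 and 258 Control cells but only 16, 13 and 13 D+F+P cells. Much of the weight of the D+F+P values thus lies on few cells. Sparc was lower in D+F+P than in Control in all 8 clusters, and in aPD-1 in all but cluster 12, where it was at 0.32.

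**Figure D4:**
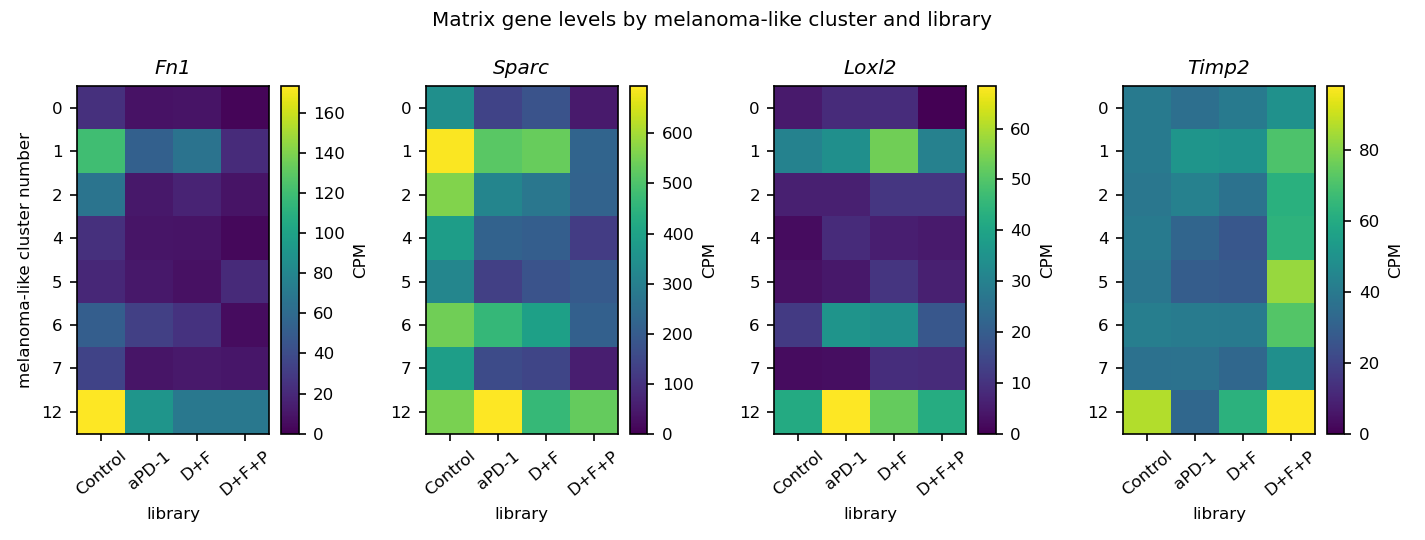
CPM of Fn1, Sparc, Loxl2 and Timp2 (colour, own scale a gene) by melanoma-like cluster (rows, cluster numbers) and library (columns). Clusters 1 and 12 are the brightest rows for Fn1 and clusters 1, 6 and 12 for Loxl2, and within most rows Fn1 and Sparc are brightest in Control and Timp2 in D+F+P.

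Related genes outside the 34 were read from lists by role, and for each the counts are for melanoma-like cells of aPD-1, then D+F, then D+F+P, each against Control. Collagen-modifying enzymes had 0, 1 and 2 of 17, 17 and 17 comparable genes higher and 0, 0 and 1 lower. Bmp1, which trims procollagen, stood at 9.78 against 4.6 CPM in D+F+P and Control, and the prolyl hydroxylase P3h2 at 13.2 against 21.5 CPM. Other collagens had 1, 1 and 1 of 11, 15 and 11 comparable genes higher and 1, 2 and 3 lower. Col9a1 stood at 2.07 against 5.82 CPM in aPD-1 and Control and at 1.97 against 5.82 CPM in D+F+P and Control.

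Matrix receptors had 2, 2 and 3 of 19, 20 and 19 comparable genes higher and 2, 2 and 3 lower. The integrin chain Itga4, which with Itgb1 binds fibronectin, was among the lowest in all 3, at 4.19 against 11 CPM in aPD-1 and Control, 5.26 against 11 CPM in D+F and Control, and 2.99 against 11 CPM in D+F+P and Control. Itga1, part of a collagen receptor, stood at 6.11 against 10.2 CPM in D+F+P and Control. Other proteases and inhibitors had 1, 3 and 2 of 21, 22 and 21 comparable genes higher and 4, 3 and 6 lower. The cysteine protease Ctsl stood at 59.3 against 105 CPM in aPD-1 and Control and 59.1 against 105 CPM in D+F and Control. TGF-beta pathway genes had 0, 0 and 2 of 20, 20 and 20 comparable genes higher and 4, 5 and 2 lower. The ligand Tgfb2 stood at 3.51 against 7.29 CPM in aPD-1 and Control and 2.44 against 7.29 CPM in D+F+P and Control. Other glycoproteins and proteoglycans had 1, 1 and 2 of 20, 20 and 20 comparable genes higher and 2, 1 and 2 lower. Hapln1, which links hyaluronan to proteoglycans, stood at 14.6 against 30.4 CPM in aPD-1 and Control and 13.6 against 30.4 CPM in D+F+P and Control. Spp1, osteopontin, was lower in D+F, at 2.68 against 4.14 CPM in D+F and Control, and higher in D+F+P, at 10.1 against 4.14 CPM in D+F+P and Control. Over the pooled libraries, 2.77% of Spp1 UMIs lay in melanoma-like and 69.7% in fibroblast-like cells. The part of background in its melanoma-like levels was not tested.

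Over 50% of UMIs lay in melanoma-like cells for 15 of 16 other collagens with at least 20 UMIs, 10 of 13 basement membrane genes, 16 of 21 collagen-modifying enzymes and 17 of 25 receptors. The same held for 85.6% of all genes with that many UMIs. Of 36 other glycoproteins and proteoglycans, 18 lay in fibroblast-like and 13 in melanoma-like cells. Fibulin-5 (Fbln5, 98.4%), fibulin-1 (Fbln1, 97.9%) and Sparcl1 (98.7%) were melanoma-like, unlike their relative Fbln2. The metalloproteinases Mmp12 (89.8%), Mmp13 (91%) and Mmp8 (92.9%) lay in monocyte/macrophage-like cells, and Mmp3 (96.8%) and Mmp10 (97%) in fibroblast-like cells.

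In monocyte/macrophage-like cells Tgfbi and Mmp14 were lower in the treated libraries and Fn1 was higher in D+F and D+F+P. Of 8, 7 and 6 comparable members, 1, 1 and 1 were counted as higher and 4, 3 and 4 as lower, for aPD-1, then D+F, then D+F+P, against Control. Over all genes the shares higher were 6.31%, 6.71% and 9.57%, and lower 6.39%, 8.04% and 10.2%. Tgfbi had 352, 639, 318 and 399 UMIs, 1430.2, 637, 718 and 862 CPM, and log2 ratios of -1.17 (-1.36 to -0.97), -0.99 (-1.22 to -0.77) and -0.73 (-0.94 to -0.52). Fn1 had 12, 82, 124 and 113 UMIs, 48.8, 81.8, 280.1 and 244 CPM. Its ratio was 0.75 (-0.14 to 1.76) in aPD-1, 2.52 (1.67 to 3.51) in D+F and 2.32 (1.46 to 3.32) in D+F+P, the direction opposite to that in melanoma-like cells. This difference between the classes was not tested. The Fn1 UMIs lay in 7, 30, 24 and 30 cells, and the top cell held 25, 15.9, 36.3 and 24.8% of them. Without that cell the D+F and D+F+P ratios of Fn1 were 2.29 and 2.33, and with each cell's class taken from its own markers they were 1.504 and 1.22. Summed melanoma markers stood at 1406, 370.1, 721 and 259 CPM in this class, with all 8 detected in each library, against 10252 to 10979 CPM in melanoma-like cells, and summed fibroblast markers at 114, 56.9, 22.6 and 45.3 CPM, with 3, 10, 3 and 6 of 14 detected and Pdgfra at 0 in all 4. Their part in these ratios was not tested. Mmp14 had 32, 42, 22 and 10 UMIs, 130.0, 41.9, 49.7 and 21.6 CPM, and ratios of -1.63 (-2.33 to -0.92), -1.39 (-2.24 to -0.56) and -2.59 (-3.78 to -1.53).

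Splitting these cells by C1q, a complement component made by macrophages, gave different levels for some members. In cells with a C1qa or C1qb UMI (18, 103, 40 and 34 cells), Fn1 stood at 12.5, 34.8, 55.4 and 113 CPM, and in the other 44, 138, 64 and 58 cells at 66.3, 117, 435 and 307 CPM. In cells without C1q, Fn1 in D+F (interval 358 to 522 CPM) and D+F+P (248 to 374 CPM) lay above Control (33.1 to 119 CPM). In cells with C1q the Control value rests on 1 UMI (0.315 to 69.4 CPM), and its interval overlaps those of D+F (26.6 to 102 CPM) and D+F+P (66.1 to 182 CPM). Fn1 was higher in cells without C1q than with it in the 3 treated libraries, while in Control the intervals overlap. Mmp14 had 162, 67.2, 105 and 53.4 CPM in cells with C1q and 115, 22.8, 11.4 and 6.39 CPM without. Timp2 stood at 87.2, 64.9, 155 and 66.7 CPM with C1q and 0, 1.75, 3.81 and 16 CPM without. Tgfbi stood at 1495, 633, 1048 and 1334 CPM with C1q and 1399, 641, 492 and 635 CPM without. In cells with C1q, the Mmp14 interval of each treated library overlaps that of Control (86.2 to 277 CPM). The Tgfbi interval there overlaps Control (1239 to 1788 CPM) in D+F+P (1156 to 1532 CPM) but not in aPD-1 or D+F. In cells without C1q, the intervals of both genes lay below Control in each treated library. This split was made after the values of the whole class had been seen, and shallow cells can lack a C1q UMI.

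The other members of this class rest on few cells. Sparc (118, 46.9, 20.3 and 10.8 CPM) and Serpinh1 (65, 18, 36.1 and 8.64 CPM) were counted as lower in treated libraries, but 1 Control cell held 86.2% and 75% of their UMIs. Col1a1 had 1, 45, 0 and 2 UMIs, and 1 aPD-1 cell held 88.9% of the 45, so that the 1 member counted as higher in aPD-1 rests on that cell. Timp1 (28.4, 26.9, 29.4 and 19.4 CPM) was counted in no comparison. Timp2 (28.4, 28.9, 65.5 and 32.4 CPM) was lower in D+F+P than in D+F, at -1.02 (-2.02 to -0.07). Against D+F, 0 of 6 members were higher and 3 lower (5.96% and 5.93% of all genes). With the stricter cell filter, and also without the top cell of each gene, 0 were lower, so the Timp2 count did not hold. Against aPD-1, 1 of 8 was higher and 2 were lower (4.72% and 5.68%). Among the related genes, Spp1 stood at 546 against 2539 CPM in aPD-1 and Control, 212 against 2539 CPM in D+F and Control and 263 against 2539 CPM in D+F+P and Control. The collagenase Mmp13 stood at 64.8 against 317 CPM, 58.7 against 317 CPM and 30.2 against 317 CPM in the same pairs.

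Fibroblast-like cells could be compared between libraries only for aPD-1 (43 cells) and D+F+P (25 cells), since Control and D+F held under 20. In D+F+P, 13 of the 34 genes were higher and 3 lower than in aPD-1, where 12.1% and 7.76% of all genes were. The median log2 ratio was 0.21 for the members and 0.03 for all genes. Type VI, XV and XVIII collagen, Dcn and Lum stood higher in D+F+P, and type I and III collagen differed by less than 1.5-fold.

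Col1a1 stood at 5762 CPM in aPD-1 and 6344 CPM in D+F+P, a log2 ratio of 0.14 (0.07 to 0.21). Col1a2 (0.07, interval -0.03 to 0.16) and Col3a1 (0.26, interval 0.18 to 0.34) were likewise within 1.5-fold. All 3 type VI chains were higher: Col6a1 at 276 CPM in aPD-1 and 666 CPM in D+F+P (1.27, interval 1.01 to 1.54), with Col6a2 at 1.26 (1.0 to 1.52) and Col6a3 at 1.07 (0.82 to 1.32). Dcn stood at 939 CPM in aPD-1 and 2581 CPM in D+F+P (1.46, interval 1.32 to 1.6), and Lum at 96.3 CPM in aPD-1 and 231 CPM in D+F+P (1.26, interval 0.80 to 1.73). Bgn was even, at 0.14 (0.05 to 0.22). Fn1 stood at 2405 CPM in aPD-1 and 4211 CPM in D+F+P (0.81, interval 0.71 to 0.90) and Tnc at 597 CPM in aPD-1 and 1413 CPM in D+F+P (1.24, interval 1.06 to 1.43). Col15a1 (1.59, interval 1.22 to 1.96), Col18a1 (2.41, interval 1.8 to 3.06), Col5a3 (1.12, interval 0.84 to 1.41), Timp2 (1.47, interval 1.05 to 1.91), Mmp2 (0.94, interval 0.59 to 1.28) and Tgfbi (3.05, interval 2.13 to 4.09) complete the 13. Tgfbi rested on 54 UMIs in D+F+P and 12 in aPD-1. Summed monocyte/macrophage markers stood at 49.2 and 79.0 CPM in these cells, with 4 and 7 of 10 detected. Lyz2, Adgre1 and Fcgr1 were at 0 in both, and C1qa and C1qb were detected in aPD-1 only. The part of such transcripts in the Tgfbi ratio was not tested. The 3 lower were Timp3, with 118 UMIs in aPD-1 and 7 in D+F+P (-3.2, interval -4.54 to -2.11), Col4a1 (-0.83, interval -1.46 to -0.23) and Serpinh1, at 2854 CPM in aPD-1 and 1625 CPM in D+F+P (-0.81, interval -0.94 to -0.69). Among the other members Sparc (-0.29, interval -0.36 to -0.22), Timp1 (0.12, interval 0.04 to 0.19) and Lox (-0.54, interval -0.74 to -0.34) lay within 1.5-fold.

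The cells of the aPD-1 and D+F+P libraries were spread differently over the sub-clusters. Of the aPD-1 cells 16 were in sub-cluster 2 (led by Cxcl5 and cell cycle genes) and 8 in sub-cluster 5 (led by Acta2, Myl9 and Tagln, genes of contractile cells), where D+F+P had 0 and 1. Of the D+F+P cells 12 were in sub-cluster 3 (led by Cck, Nos2 and Grem1) and 9 in sub-cluster 1 (led by Meg3 and Malat1), where aPD-1 had 4 and 8. Sub-cluster 4, led by Pi16, Dmkn and Clec3b, held 7 and 3. Sub-cluster 1 had a median ribosomal protein share of 4.82% and 4190 median UMIs, against 19.99% to 25.9% and 13851.5 to 20956 in the others, and the highest level of Col1a1, Col3a1 and Fn1. Without it, a repeat added after these values were seen, 12 members were higher and 6 lower. The share over all genes was not taken for this repeat. Mmp14, newly counted as higher, came to 0.69. The ratios of Fn1 and Col5a3 then came to 0.22 and 0.27 and that of Col4a1 to -0.12. Those of Col1a1, Col1a2 and Col3a1 turned negative, at -0.38, -0.35 and -0.44. Those of Col12a1, Lox, Loxl2 and Fbn1, the members newly counted as lower, came to -1.497, -0.79, -0.68 and -0.60. Summed pericyte and smooth muscle markers stood at 3121, 699, 894 and 430.2 CPM in the fibroblast-like class, with 4, 5, 6 and 5 of 8 detected. Cspg4, Notch3 and Acta2 were detected in all 4 libraries, and Myh11 was at 0 in all 4. Summed fibroblast markers stood at 3688, 1979, 4272 and 2505 CPM there. The part of pericyte or smooth muscle cells in these ratios was not tested.

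The levels of 6 matrix genes are given by sub-cluster, with the libraries pooled. Col1a1 stood at 19185, 6435, 2487, 10836 and 3277 CPM in sub-clusters 1 to 5, and Col3a1 at 13143, 4523, 1206, 9627 and 2017 CPM. Timp1 was lowest in sub-cluster 1, where both collagens were highest, at 1290.3, 5644, 6690.3, 3068 and 7459 CPM. Dcn was high in sub-clusters 1 and 3, at 2836, 826, 2600.4, 1734 and 762 CPM. Postn was low in sub-cluster 3, at 1290.3, 1301, 162, 1557 and 462 CPM. Serpinh1 had its highest value in sub-cluster 4, at 2248, 3173, 1092, 4021 and 1989 CPM. Sub-cluster 3, which held 12 of the 25 D+F+P cells, thus combined low Col1a1 and Col3a1 with high Timp1 and Dcn. These are values of 10 to 23 cells each, and the libraries fill the sub-clusters differently.

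**Figure D5:**
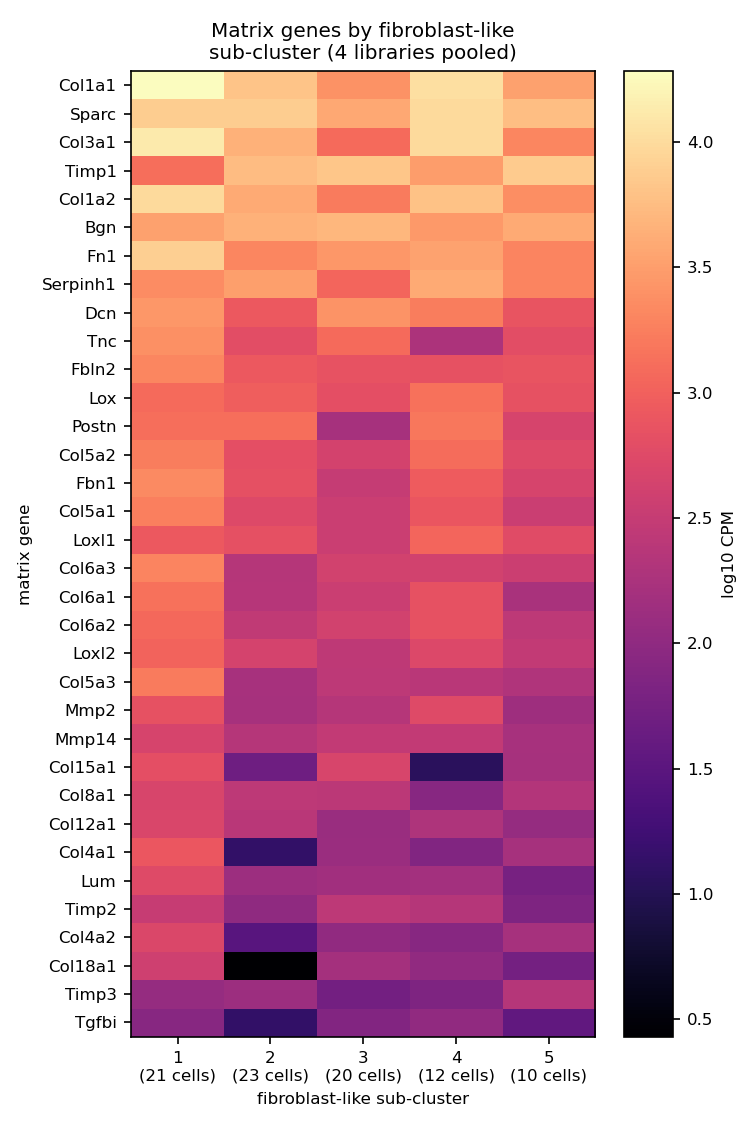
Log10 CPM (colour) of the 34 genes (rows, ordered by their mean) in 5 fibroblast-like sub-clusters (columns, with cell numbers; 4 libraries pooled). Sub-clusters 1 and 4 are brighter for Col1a1 and Col3a1 than sub-cluster 3, which is brighter for Timp1.

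Related genes also differed between these libraries. In D+F+P fibroblast-like cells, 7 of 20 TGF-beta pathway genes were higher and 1 lower, and 9 of 22 other proteases and inhibitors higher and 3 lower. Ltbp4, which holds latent TGF-beta in matrix, stood at 118 against 8.03 CPM in D+F+P and aPD-1, and Tgfbr2, a receptor of TGF-beta, at 101 against 169 CPM. The stromelysin Mmp3 stood at 556 against 131 CPM. Spp1 stood at 16054 against 5369 CPM. Basement membrane genes had 3 of 8 higher and 0 lower, with perlecan (Hspg2) at 533 against 232 CPM. Matrix receptors had 5 of 12 higher and 0 lower, with Itga5, which pairs with Itgb1 as a fibronectin receptor, at 568 against 281 CPM. Collagen-modifying enzymes had 4 of 20 higher and 2 lower. Other glycoproteins and proteoglycans had 5 of 30 higher and 9 lower, and Fbln1 stood at 9.83 against 62.9 CPM. Of 3 comparable other collagens, 2 were higher and 1 was lower, the last Col14a1 at 86 against 139 CPM.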

How the data were processed

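The deposited data are raw UMI counts per gene and cell barcode, which the authors made for each of the 4 libraries with Cell Ranger 3.1.0 on GRCm38 (mm10), per the submitters' processing notes. The annotation release is not given in the sources used here. The totals were 34444856, 27216211, 31937128 and 22691663 UMIs over 2529, 2525, 2809 and 2739 barcodes, with Control first, then aPD-1, then D+F, then D+F+P. The sequencing was of 5' transcript ends after dissociation and removal of dead cells, which can change the share of fibroblasts recovered.

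Barcodes with at least 500 UMIs, at least 300 genes and at most 20% mitochondrial UMIs were kept. Scrublet marked 46 of 9461 barcodes (0.486%) as doublets. That is too few for the caller to be taken as having worked, so mixed droplets may remain, and only those 46 were removed. Cells were scaled to 10000 UMIs, and 2000 variable genes, without the matrix genes and the related lists, gave 30 principal components, 15 neighbours and Leiden clusters at resolution 1 (Scanpy 1.11.5, NumPy 2.4.6, SciPy 1.17.1, Python 3.11.15). A cluster was named from at least 3 detected markers. The stromal cluster was split into 6 sub-clusters, 1 of them endothelial-like.

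UMIs were summed per class and library. With 1 library a group there is no test between groups and no p-value. Exact Poisson intervals (levels), conditional binomial intervals (ratios) and Clopper-Pearson intervals (shares) at 95% cover counting error only. Members and lists were chosen with earlier results of these data known. All 34 members are accounted for. A member is described in a class where it has at least 20 UMIs in at least 1 library, and up to 2 counted genes in each direction are named from each related list by the bounds of their intervals. Some names from those lists are given for comparison with another library or class. Some results of those lists are not reported here. The counting code was tested on simulated counts. Alternatives covered the scaling, cell filter, clustering, class rule, thinning to 1000 UMIs, fold threshold, and leaving out single cells.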

Additional observations from a re-analysis of the deposited data

Results flagged for a closer look

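Fn1 and Timp2 had opposite directions in monocyte/macrophage-like and melanoma-like cells between the same libraries, and that is why they are listed here. For D+F against Control, the log2 ratio of Fn1 was 2.52 in monocyte/macrophage-like and -1.07 in melanoma-like cells. For D+F+P against Control, it was 2.32 and -2.22. For D+F+P against aPD-1, it was 1.58 and -1.18. For D+F+P against D+F, the log2 ratio of Timp2 was -1.02 in monocyte/macrophage-like and 0.82 in melanoma-like cells. In monocyte/macrophage-like cells, Timp2 was no longer counted as lower with the stricter cell filter or without the top cell of each gene. Each ratio compares 1 library with 1 library, and the difference between the classes was not tested.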

How the results depend on the processing

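Limits are set by 1 library a group, by 7 to 43 fibroblast-like cells in a library and by uneven depth. Median UMIs of fibroblast-like cells were 5106, 18665, 5511 and 15089. D+F+P had a low median over all cells (1866 UMIs), with 1150 cells in unnamed clusters at a median of 703.5. Its melanoma-like cells had a median of 28568 UMIs, against 17787, 18806 and 16404.5 in Control, aPD-1 and D+F. Of the summary values under alternatives, 200 stayed close to the main value and 42 moved. Of the values of single genes, 1710 stayed, 221 moved and 25 changed sign. In melanoma-like cells, over 7 alternatives without thinning, the ratio of Fn1 to Control ran from -1.16 to -0.99 in aPD-1, -1.20 to -0.86 in D+F and -2.32 to -2.13 in D+F+P. No paired analysis was possible because each group has 1 library. The causes of the shifts below were not tested, apart from fewer UMIs in the thinned cells and the higher threshold itself.

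In melanoma-like cells, thinning to 1000 UMIs left 0 members higher and 0 lower in aPD-1 against Control, 0 and 2 in D+F, 1 and 2 in D+F+P, 1 and 0 from D+F to D+F+P, and 0 and 1 from aPD-1 to D+F+P. Thinned ratios to Control changed sign for Fbn1 in aPD-1 (-1.53) and D+F+P (-0.49), Col12a1 in D+F (1.16), Col4a2 in D+F+P (0.84) and Timp1 in D+F+P (0.063). A 2-fold threshold gave 0 higher and 1 lower in aPD-1, 3 lower in D+F, 2 and 3 in D+F+P, 2 and 2 from D+F to D+F+P, and 3 and 1 from aPD-1 to D+F+P. Median-of-ratios scaling gave 3 lower in D+F.

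With the stricter cell filter, cells were clustered again, and a cluster of 315 cells, 211 of them from Control, was left unnamed. That cluster had 7 melanoma markers, and Col4a1, Col4a2 and Col18a1 were among its leading genes. Another unnamed cluster held 242 cells. The melanoma-like class thus changed by more than the filter. The stricter filter gave 2 lower in D+F, 3 higher and 3 lower from D+F to D+F+P and 3 higher against aPD-1 in melanoma-like cells. There it turned Col1a1 (2.13) and Postn (-0.46) in D+F, and Dcn in D+F+P, at -1.01 to Control and -0.56 to D+F. In monocyte/macrophage-like cells it gave 2 lower in aPD-1, 2 higher in D+F, 2 lower in D+F+P, 0 lower against D+F and 2 higher against aPD-1. It turned Sparc in aPD-1 (1.94), in D+F (0.067) and also in D+F+P (0.10), and Serpinh1 in aPD-1 (0.98) and D+F+P (0.10).

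With classes from each cell's own markers, 3 members were lower in melanoma-like cells of D+F+P against D+F, and Postn in D+F came to -0.38. In monocyte/macrophage-like cells 3 were higher and 7 lower in aPD-1 and 7 lower in D+F+P against aPD-1, with Col1a1 at -1.08, Sparc at 1.27 and Serpinh1 at 1.12 in aPD-1. Without melanoma-like cells holding 2 or more stromal markers, 1 member was higher in D+F+P than in Control, 2 than in D+F and 3 than in aPD-1, and Col1a1 in D+F (1.85) and Dcn in D+F+P (-0.19) changed sign.

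Without the top cell of each gene, monocyte/macrophage-like cells had 0 higher and 2 lower in aPD-1, 2 higher in D+F, 2 lower in D+F+P and 0 lower against D+F. Postn in D+F (-0.38), Dcn in D+F+P (-0.85 to Control, -0.28 to D+F) and Sparc in aPD-1 macrophages (0.93) then changed sign. With the matrix genes allowed in clustering, Timp3 in D+F+P against aPD-1 came to -0.086. Without sub-cluster 1, 6 members were lower in fibroblast-like cells of D+F+P against aPD-1. The last alternative, the unsplit stromal cluster, the fibroblast-like class without its top cell, and the sources without the D+F+P library were added after seeing the data.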
